A study of Mus musculus with 10 samples.

Results

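This account describes 8 lipase genes in mouse cheek skin: Pnliprp2, Lipk, Lipm, Lipn, Liph, Lipe, Mgll and Lipa. They were picked by gene symbol, and all 8 were found among the 18994 genes listed. Pnliprp2 heads the set because it had the smallest p of the comparison between the groups, so its difference is described here without a test. The other 7 are lipases of skin or fat, picked with earlier results of these data known. Poly(A)-selected RNA was sequenced with single reads of 50 bases in 10 C57BL/6 mice aged 6 to 8 weeks, for which no genetic change is named. Their cheeks were shaved 3 days ahead, and the right cheek was given 5 µL into the dermis. In 5 mice this held 1 µg of MMP9, a secreted gelatinase, and in the other 5 it was vehicle alone. Tissue was taken after 4 hours. The labels name neither the sex of the mice nor the make-up of the vehicle, and no control mouse without an injection was among the samples.

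Lipases release fatty acids from glycerolipids. Skin uses them in at least 3 places: in the upper epidermis, where lipids are processed for the barrier, in fat cells and the sebaceous gland, where stored fat is turned over, and in lysosomes, where lipids taken up by the cell are broken down. Pancreatic lipase-related protein 2, the product of Pnliprp2, is a secreted enzyme that acts on triglycerides, phospholipids and galactolipids. It is best known from the exocrine pancreas, and in the mouse it was also described in cytotoxic T cells exposed to interleukin 4.

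Whole libraries held between 17121541 and 19443099 estimated counts. Every marker list had counts for each member present in the table over the 10 libraries together, so presence alone marks no tissue. In CPM without scaling factors, terminal keratinocyte markers summed to 10928.5 to 18121.6 in vehicle and 12067 to 17391 in MMP9. Sebaceous gland markers summed to 4078 to 6889 and 4422 to 5728, and adipocyte markers to 2268 to 6032 and 2711 to 5807. Skeletal muscle markers were higher still, at 18771 to 35322 and 19002 to 34712, so muscle transcripts were present too. The pancreatic acinar list stayed at or below 4.77. Hair follicle markers were very low in vehicle replicate 2 and MMP9 replicate 1, at -6.37 and -5.88 on the log2 scale against the vehicle mean, and between -1.44 and 2.84 in the other 8 libraries. MMP9 replicate 4 stood apart in another way, with 26.0% of its TPM in 84 ribosomal protein genes, against 16.8% to 18.4% elsewhere. The median TPM of all genes was 5.30 in that library, against 8.24 to 9.15 in the others. Because of this lower median the groups are compared in CPM scaled by TMM factors. TPM, which is per length, is used to set genes side by side. The part of the ribosomal protein share in the lower median was not tested. Each library is 1 mouse, so errors over 5 libraries are spread between animals. In whole tissue, fewer cells of a type and less RNA per cell cannot be told apart.

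The promoter windows of 4 genes are shown: Pnliprp2 because its groups did not overlap, Mgll as the most abundant, Lipm as the most abundant of the epidermal acid lipases, and Lipa as the gene that followed macrophage markers. Each is the 250 bases before the RefSeq start on build GRCm38.p6, written 5′ to 3′ on the gene's strand, at chr19:58759473-58759722 (plus), chr6:88724162-88724411 (plus), chr19:34100693-34100942 (plus) and chr19:34527475-34527724 (minus). Capitals mark matches to the motifs named after them.
Pnliprp2: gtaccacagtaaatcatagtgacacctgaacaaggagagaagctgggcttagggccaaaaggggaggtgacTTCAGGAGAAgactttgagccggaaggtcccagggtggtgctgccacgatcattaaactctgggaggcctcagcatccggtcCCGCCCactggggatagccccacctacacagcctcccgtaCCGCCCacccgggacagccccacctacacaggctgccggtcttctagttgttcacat
Mgll: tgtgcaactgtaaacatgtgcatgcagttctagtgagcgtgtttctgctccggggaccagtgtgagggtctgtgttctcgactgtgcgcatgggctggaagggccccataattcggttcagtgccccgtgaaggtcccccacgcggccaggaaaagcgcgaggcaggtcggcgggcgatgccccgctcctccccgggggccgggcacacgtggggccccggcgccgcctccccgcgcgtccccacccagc
Lipm: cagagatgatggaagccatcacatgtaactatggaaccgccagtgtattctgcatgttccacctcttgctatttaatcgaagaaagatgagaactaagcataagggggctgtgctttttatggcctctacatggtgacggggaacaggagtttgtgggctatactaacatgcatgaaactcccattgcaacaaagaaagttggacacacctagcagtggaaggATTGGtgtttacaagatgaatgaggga
Lipa: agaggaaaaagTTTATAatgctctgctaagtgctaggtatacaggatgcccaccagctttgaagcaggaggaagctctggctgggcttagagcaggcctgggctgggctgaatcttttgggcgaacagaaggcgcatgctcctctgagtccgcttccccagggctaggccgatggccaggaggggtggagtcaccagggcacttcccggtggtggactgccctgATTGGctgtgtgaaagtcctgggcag
Motifs were searched on both strands, overlaps included: the TATA box, AP-1, the CCAAT box, the GC box, a grainyhead motif, STAT motifs with a spacer of 3 or 4 bases, and a PPAR direct repeat. The Pnliprp2 window held a STAT motif with the 4-base spacer, 179 to 170 bases before the start, and such a motif is found in 5.85% of 32851 promoter windows of that length. It also held 2 GC boxes, spelled GGGCGG, which 32.7% of windows hold. The Lipm window held a CCAAT box, written by those 5 letters, at 27 to 23 bases before the start, and the Lipa window one at 26 to 22 bases, against 33.8% of windows. The Lipa window also held the TATA box letters, TATAAA, at 239 to 234 bases before its start, which 12.4% of windows hold. No match in any of the 4 printed windows was found for AP-1, spelled TGANTCA and present in 6.75% of all windows. The same held for the grainyhead motif, spelled AACCNGTT and present in 1.79%, for the STAT motif with the 3-base spacer, spelled TTCNNNGAA and present in 7.02%, and for the PPAR repeat, present in 0.0335%. None of the letters searched was in the printed Mgll window, where 68.0% of bases were G or C against a median of 52.4%. RefSeq lists a second, downstream start for Mgll, whose window is not printed here and held 74.8% G or C and a GC box at 121 to 116 bases before that start. RefSeq promoter rows were matched for 7 of the 8 genes, all but Lipk. These matches describe letters and not bound sites.

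The 8 genes covered a wide range of levels. Mgll was far above the others at 626 ± 257 TPM (SD over 10 libraries), and ranked between 144 and 368 among all genes listed. It made up 73.6% of the summed TPM of the 8 on average, between 65.0% and 85.8%. Lipe followed at 62.0 ± 18.4 TPM and Lipm at 60.3 ± 10.3 TPM. Lipa stood at 27.6 ± 11.1 TPM. The remaining genes lay close together, Liph at 15.9 ± 2.29, Lipn at 15.8 ± 2.69, Pnliprp2 at 14.1 ± 4.05 and Lipk at 13.3 ± 2.67 TPM.

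Of the 7 pairs of neighbours in this order, 3 differed in level within libraries by an exact two-sided sign-flip permutation on the log2 TPM ratio. Mgll was 9.95-fold above Lipe, Lipm 2.30-fold above Lipa, and Lipa 1.64-fold above Liph (geometric means). Each of these held in 10 of 10 libraries, with an exact p of 0.00195, the smallest that 10 libraries allow, and an adjusted p of 0.00456 over the 7 pairs. Lipe and Lipm were not separated, with Lipe higher in 4 of 10 libraries (exact permutation, adjusted p 0.990). The order of the 4 least abundant genes was not resolved either, with adjusted p values of 0.990, 0.349 and 0.990 in the exact sign-flip permutation for Liph over Lipn, Lipn over Pnliprp2 and Pnliprp2 over Lipk. Mean log2 ratios of these 3 pairs were 0.02, 0.20 and 0.05, with SDs of 0.32, 0.45 and 0.46.

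**Figure D1:**
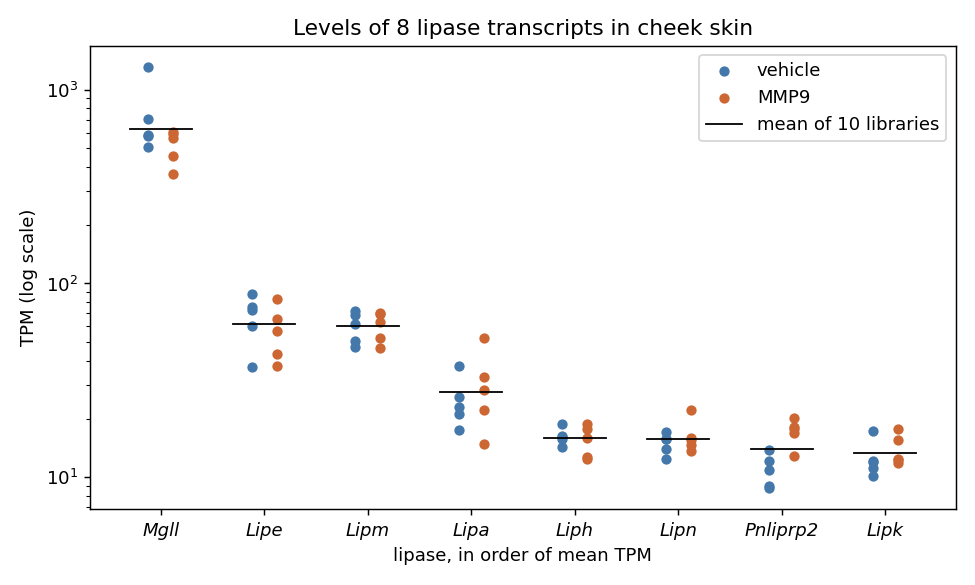
TPM (log axis) of each lipase in every library, vehicle in blue and MMP9 in orange, with a line at the mean of the 10 libraries. Mgll, at 365 to 1308 TPM, stands above all the others, and Liph, Lipn, Pnliprp2 and Lipk share the range from 8.79 to 22.4 TPM.

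Pnliprp2 transcripts were more abundant in every MMP9 mouse than in any vehicle mouse. Vehicle replicates 1 to 5 had 8.40, 8.03, 11.1, 12.9 and 9.77 CPM, and MMP9 replicates 1 to 5 had 17.3, 15.9, 15.4, 17.9 and 15.7 CPM. The means were 10.1 ± 2.03 and 16.4 ± 1.07 CPM (SD, n = 5), a ratio of 1.63, and the fitted log2 ratio was 0.71 (standard error 0.14). The nearest libraries of the groups were vehicle replicate 4 and MMP9 replicate 3. It was the only one of the 8 lipases whose groups did not overlap, where 0.564% of all 15250 genes tested did so, and nothing is read from that count because the gene was chosen by this contrast. Leaving out any one library gave log2 fold changes between 0.64 and 0.80.

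On the TPM scale the separation was not complete. Vehicle libraries had 8.98, 8.79, 12.1, 13.8 and 10.9 TPM of Pnliprp2, and MMP9 libraries 20.3, 18.3, 17.8, 12.9 and 17.0 TPM. MMP9 replicate 4, at 12.9 TPM, fell below vehicle replicate 4, while the other 4 MMP9 libraries lay above every vehicle library. That library is the one with the raised ribosomal protein share and the lowest median TPM of all genes. In CPM scaled by TMM factors it held the highest Pnliprp2 value of all 10, and its TMM factor was the lowest, 0.843. In estimated counts it was the lowest of the 5 MMP9 libraries, at 258, where vehicle libraries had 147 to 235. Its rank within the MMP9 group thus depends on the scaling.

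The genes next to Pnliprp2 on chromosome 19 are its relatives Pnliprp1 and Pnlip, the pancreatic lipase gene. They were close to absent, with 83 counts of Pnliprp1 and 1 count of Pnlip over all 10 libraries, against 2430 of Pnliprp2. Pnliprp1 had 28 counts over the 5 vehicle and 55 over the 5 MMP9 libraries, with 2 to 16 counts a library, or 0.306 ± 0.128 and 0.602 ± 0.233 CPM (SD) before TMM scaling. The ranges overlapped, from 0.108 to 0.447 CPM and from 0.332 to 0.934 CPM. Both genes fell under the filter on low counts, so neither was tested. Other genes of the pancreatic acinar list were near 0 too. Of its 12 members in the table, 1 passed the filter on low counts, the elastase gene Cela1 at 2.31 to 5.50 TPM. The list summed to between 2.46 and 4.77 CPM in vehicle and between 3.37 and 4.56 CPM in MMP9 before TMM scaling. On the other side of the locus, Hspa12a had a fitted log2 ratio of -0.13 and Shtn1 of -0.06, with standard errors of 0.13 and 0.09 and an edgeR adjusted p of 0.981 each.

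Lymphocyte markers are set beside Pnliprp2 because the gene was described in cytotoxic T cells. Fitted log2 ratios were positive for all 17 tested members of the T cell and cytotoxic lymphocyte list, with a median of 0.43 against 0.01 over all genes, where 53.7% of all genes were positive. In edgeR 0 of 17 passed, and 4 had an unadjusted p under 0.05, as did 3.19% of all genes. Before TMM scaling the list summed to between 294 and 475 CPM in vehicle mice and between 323 and 467 CPM in MMP9 mice. No member in the table was at 0. Most of that sum was Thy1, which is also made by other cells of skin, at 211 to 364 CPM in vehicle and 216 to 336 CPM in MMP9. The other members summed to between 82.8 and 111 CPM in vehicle and between 107 and 132 CPM in MMP9. The Thy1 values and these sums are before TMM scaling too. The score of the list, the mean log2 CPM of the members, exceeded every vehicle score in 3 of 5 MMP9 mice. Once group means were removed, Pnliprp2 and this score had a Pearson r of -0.24 over 10 libraries (exact within-group permutation p = 0.603, adjusted p 0.826) and a Spearman rho of -0.27 (exact permutation p = 0.503, adjusted p 0.786). Without the 2 libraries farthest from the median score r was -0.53. Mast cell markers were positive in 9 of 11 tested members with a median of 0.46. In edgeR 0 of 11 passed, and 1 had an unadjusted p under 0.05. Before TMM scaling they summed to between 123 and 497 CPM in vehicle and between 313 and 473 CPM in MMP9. Fcer1a, the least abundant member at 104 counts in all, was at 0 TPM in at least 1 library. The mast cell score and Pnliprp2 had an r of 0.17 within groups (exact permutation p = 0.736, adjusted p 0.909) and a rho of 0.22 (exact permutation p = 0.581, adjusted p 0.849). The part of either cell type in the Pnliprp2 difference was not tested.

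**Figure D2:**
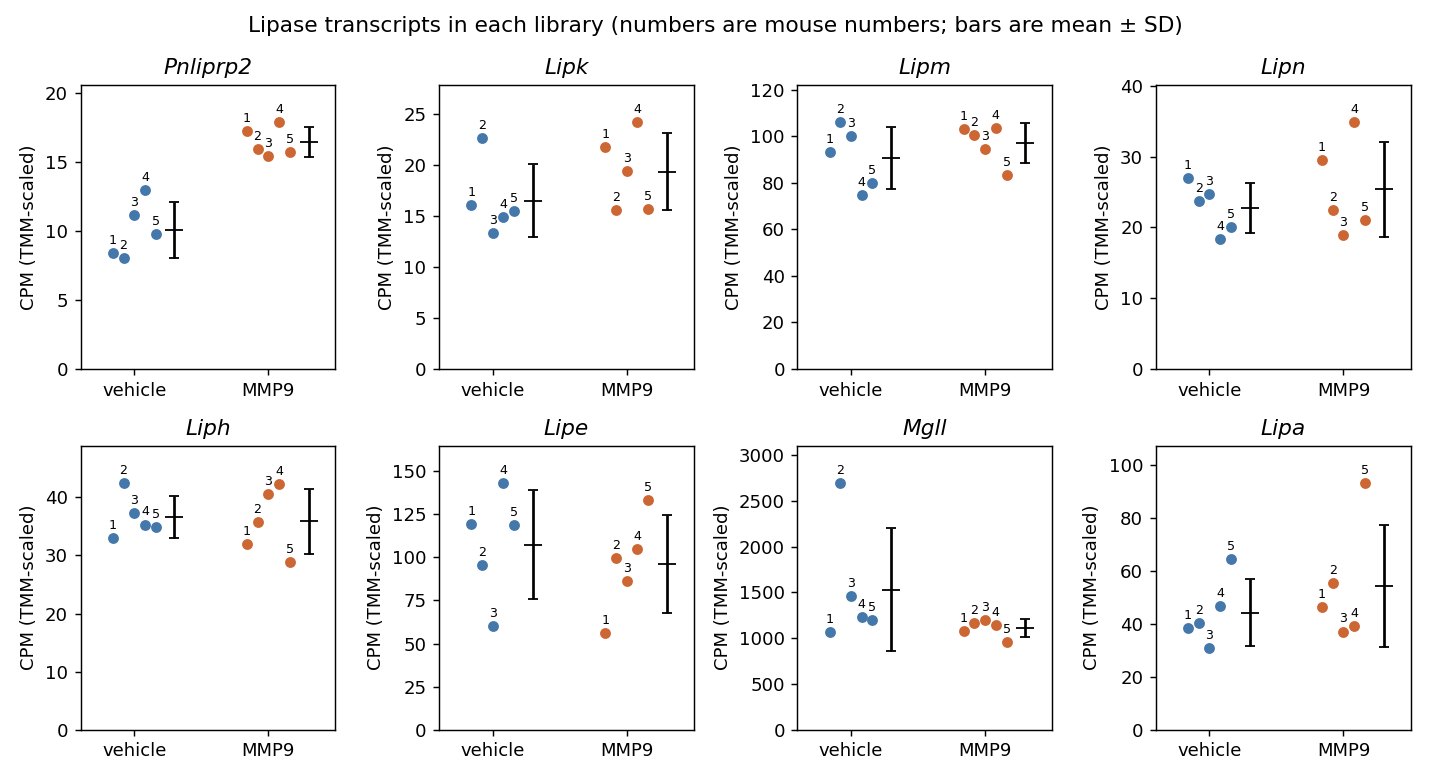
CPM of each lipase in every library, on axes from 0, with the mouse number above each point and the mean ± SD of 5 mice beside each group. Pnliprp2 values do not overlap between vehicle (8.03 to 12.9 CPM) and MMP9 (15.4 to 17.9 CPM), and the other 7 lipases overlap.

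None of the other 7 lipases passed the test of a difference between the groups. With edgeR's quasi-likelihood test 0 of 7 passed, with Benjamini-Hochberg adjusted p values over all tested genes between 0.981 and 0.990, where 0% of 15250 genes passed and 3.19% had an unadjusted p under 0.05. All 7 overlapped between the groups in CPM. Over the 8 genes, 5 log2 fold changes were positive and 3 negative, with a median of 0.13, while 53.7% of all genes tested were positive with a median of 0.01.

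**Figure D3:**
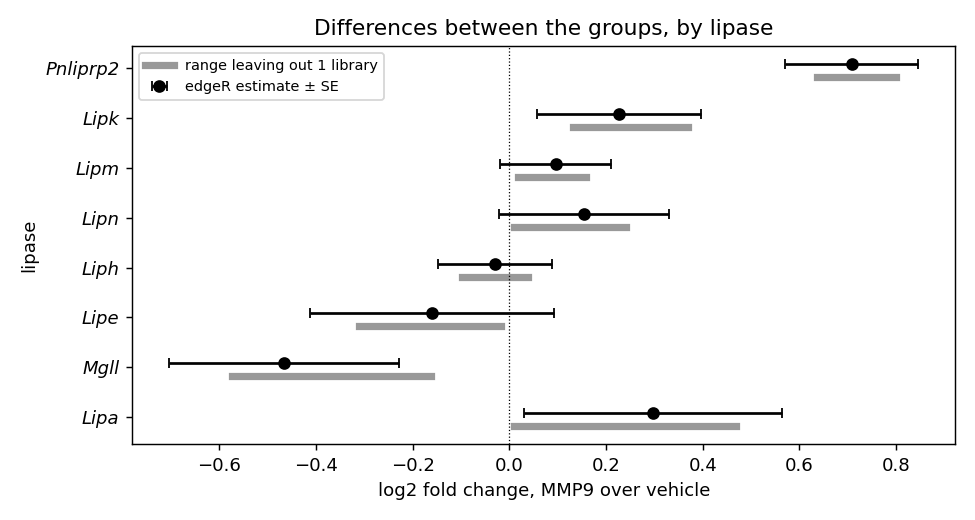
Log2 fold change of each lipase, MMP9 over vehicle, with the edgeR standard error (black) and the range over fits that leave out 1 library (grey). Pnliprp2 is at 0.71, Mgll at -0.47 with a range from -0.57 to -0.16, and the other 6 lie between -0.16 and 0.30.

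Lipk, Lipm and Lipn encode relatives of lysosomal acid lipase that are made in the outer living layers of the epidermis, and in humans loss of LIPN gives a late-onset ichthyosis. They lie in 1 cluster on chromosome 19. Lipk had 16.1, 22.7, 13.4, 14.9 and 15.5 CPM across vehicle replicates 1 to 5, against 21.8, 15.6, 19.4, 24.3 and 15.7 CPM across MMP9 replicates. Its fitted log2 ratio was 0.23 (standard error 0.17, 95% interval from -0.15 to 0.60), and ran from 0.13 without MMP9 replicate 4 to 0.37 without vehicle replicate 2. High CPM values occurred in both groups, in vehicle replicate 2 and in MMP9 replicates 1 and 4. In TPM, vehicle replicate 2 and MMP9 replicate 1 had 17.4 and 17.8, and MMP9 replicate 4 had 12.2. Lipn had 27.0, 23.8, 24.7, 18.3 and 20.1 CPM across vehicle replicates 1 to 5, against 29.6, 22.4, 18.9, 34.9 and 21.0 CPM across MMP9 replicates. The fitted log2 ratio was 0.15 (standard error 0.18, interval from -0.23 to 0.54). Without MMP9 replicate 4, the highest library in scaled CPM, this was 0.01. In TPM the highest for Lipn was MMP9 replicate 1 at 22.4, against 15.6 in MMP9 replicate 4. Lipm, which had the smallest SD of log2 CPM within groups of the 8, 0.18, had 93.3, 106, 100.2, 74.7 and 79.8 CPM across vehicle replicates, against 103, 100.6, 94.4, 104 and 83.2 CPM across MMP9 replicates. Its fitted log2 ratio was 0.10 (standard error 0.11, interval from -0.16 to 0.35), and ran from 0.02 without vehicle replicate 4 to 0.16 without vehicle replicate 2.

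The relations of these genes with keratinocyte markers from mouse to mouse did not pass the correction. Within groups, Lipm and the terminal keratinocyte score had a Pearson r of 0.73 (exact permutation p = 0.0378, adjusted p 0.252), and Lipk of 0.70 (exact permutation p = 0.0417, adjusted p 0.252), with rho of 0.83 and 0.58 (exact permutation, adjusted p 0.205 and 0.440). Without the 2 libraries farthest from the median score r was 0.58 for Lipm and 0.36 for Lipk. Lipn had an r of 0.58 with this score over 10 libraries (exact permutation p = 0.0855, adjusted p 0.370). Mgll, which is not in this cluster, had an r of 0.69 (exact permutation p = 0.0439, adjusted p 0.252). Lipm and Lipn had an r of 0.67 (exact permutation p = 0.0282, adjusted p 0.252) and a rho of 0.67 (exact permutation, adjusted p 0.315). Lipm counts are less certain than the others, since 33.1% of the 50-base stretches of its GENCODE transcripts also occur in transcripts of the next gene, Ankrd22. No 50-base stretch of Lipk, Lipn, Lipa or Pnliprp2 transcripts was shared with another gene. For Lipe the share was 10.8%, with 4732471J01Rik, and for Mgll 1.36%, with Gm26588.

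Liph encodes a membrane-associated phospholipase that makes lysophosphatidic acid, and in humans its loss gives woolly, sparse hair. Its values were 33.0, 42.5, 37.3, 35.3 and 34.9 CPM across vehicle replicates 1 to 5, against 31.9, 35.7, 40.5, 42.3 and 28.9 CPM across MMP9 replicates. The groups overlapped, with MMP9 replicates 1 and 5 below every vehicle library, and the fitted log2 ratio was -0.03 (standard error 0.12, interval from -0.29 to 0.23). Its sign changed under 4 of 18 alternatives. Between mice, Liph varied with the sebaceous gland score: the within-group Pearson r was 0.89 (exact permutation p = 0.00160, adjusted p 0.0417) and the Spearman rho 0.87 (exact permutation p = 0.00368, adjusted p 0.0920). It was 0.89 again without the 2 libraries farthest from the median, and 0.91 in the 5 vehicle and 0.95 in the 5 MMP9 libraries. Of the 2 libraries very low in hair markers, vehicle replicate 2 had the highest Liph CPM and MMP9 replicate 1 the second lowest. MMP9 replicate 4, at 42.3 CPM, had the lowest Liph TPM of all 10, at 12.4.

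Mgll encodes monoglyceride lipase, which performs the last step of fat breakdown and also degrades an endocannabinoid. Its values were 1062, 2700.2, 1466, 1229 and 1201 CPM across vehicle replicates 1 to 5, against 1082, 1165, 1199, 1142 and 954 CPM across MMP9 replicates. The fitted log2 ratio was -0.47 (standard error 0.24, interval from -0.99 to 0.05). Vehicle replicate 2 carried 2.31 times the mean of the other 9 libraries, none of which was above 1466 CPM, and without it the log2 fold change was -0.16. The other 4 vehicle libraries had 1240 ± 168 CPM, against 1109 ± 96.3 CPM in all 5 MMP9 libraries (SD). Liph and Mgll had a within-group r of 0.67 (exact permutation p = 0.000486, adjusted p 0.0243) and a rho of 0.72 (exact permutation p = 0.00361, adjusted p 0.0920), and r was 0.80 without vehicle replicates 2 and 3. Mgll and the sebaceous score had an r of 0.77 (exact permutation p = 0.00597, adjusted p 0.0863) and a rho of 0.73 (exact permutation, adjusted p 0.205), and r was 0.51 without the 2 farthest libraries.

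Lipe encodes hormone-sensitive lipase, which acts before monoglyceride lipase in fat breakdown in adipocytes. Its values were 119.2, 95.6, 60.0, 143 and 118.9 CPM across vehicle replicates 1 to 5, against 56.0, 99.7, 86.1, 105 and 133 CPM across MMP9 replicates. Low libraries occurred in both groups, vehicle replicate 3 and MMP9 replicate 1. Its fitted log2 ratio was -0.16 (standard error 0.25, interval from -0.72 to 0.39), and ran from -0.31 without vehicle replicate 3 to -0.02 without MMP9 replicate 1. The spread between mice was large for its level: the SD of log2 CPM within groups was 0.47, above that of 94.6% of 3644 genes within 2-fold of its mean CPM. Lipe followed the adipocyte score with a within-group r of 0.95 (exact permutation p = 0.00167, adjusted p 0.0417) and a rho of 0.87 (exact permutation p = 0.00556, adjusted p 0.111). Without the 2 libraries named above, which lie apart from the other 8 as a low pair for adipocyte markers too, r was 0.72, so part of the relation rests on them. In the 5 vehicle libraries it was 1.00 and in the 5 MMP9 libraries 0.89. With mast cell and macrophage scores Lipe had r of 0.80 and 0.78, which did not pass (exact permutation p = 0.00396 and 0.00896, adjusted p 0.0792 and 0.112), with rho of 0.70 and 0.72. The adipocyte score itself was lowest in vehicle replicate 3 at -0.92 and in MMP9 replicate 1 at -0.81 on the log2 scale.

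Lipa encodes lysosomal acid lipase, which frees cholesterol and fatty acids from lipids taken up by the cell, and is abundant in macrophages. Its values were 38.4, 40.3, 31.1, 46.8 and 64.6 CPM across vehicle replicates 1 to 5, against 46.4, 55.4, 37.1, 39.4 and 93.4 CPM across MMP9 replicates. The fitted log2 ratio was 0.30 (standard error 0.27, interval from -0.29 to 0.88), and it was 0.01 without MMP9 replicate 5, the highest library. Its SD of log2 CPM was 0.47, larger than that of 94.7% of 5641 genes of like level. Lipa followed the macrophage score with a within-group r of 0.84 (exact permutation p = 0.000347, adjusted p 0.0243) and a rho of 0.94 (exact permutation p = 0.000625, adjusted p 0.0625). Without vehicle replicates 3 and 5, the farthest from the median, r was 0.87. Before TMM scaling, macrophage markers summed to between 447 and 2460 CPM in vehicle and between 1008 and 2315 CPM in MMP9, with none of 14 at 0. Of these markers 4 of 14 had positive log2 ratios, with 0 of 14 passing in edgeR. The salivary gland score went the other way, with an r of -0.84 to Lipa that did not pass (exact permutation p = 0.00604, adjusted p 0.0863; rho -0.88).

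Across all 100 relations computed, 72 of a lipase with 1 of 9 marker lists and 28 between lipases, 4 passed at an adjusted p of 0.05 on Pearson's r: Lipa with macrophage, Lipe with adipocyte, Liph with sebaceous gland markers, and Liph with Mgll. None of these 4 passed on Spearman's rho. When 1 library was left out, r stayed between 0.78 and 0.89 for Lipa with macrophage, 0.90 and 0.98 for Lipe with adipocyte, 0.85 and 0.92 for Liph with sebaceous gland markers, and 0.63 and 0.76 for Liph with Mgll. None of the 4 then passed in 7 of 10 sets, Lipa with macrophage markers passed in 2 and each of the others in 1, where 9 libraries allow a lone relation an adjusted p of 0.0347 at best. With a replicate block none passed, and r was 0.45 for Lipa with macrophage markers. Without vehicle replicate 2 and MMP9 replicate 1 together r was 0.84, 0.91, 0.84 and 0.74 in the same order, and the 8 libraries left allow a lone relation an adjusted p of 0.174 at best, so whether these relations pass cannot be read there. Scaling, depth and tissue sampling are shared by all values of a library. The hair follicle list was not described in full because 2 libraries form a cluster of their own in it. Without those 2, r with this list ran from -0.70 for Lipe to 0.96 for Mgll, which was not tested. Pnliprp2 had its largest list r here, 0.46 over 10 libraries (exact permutation p = 0.273, adjusted p 0.598), and 0.50 without those 2. Pnliprp2 had no relation past an unadjusted p of 0.05 with any list or lipase, its r with the lists other than hair lying between -0.24 and 0.34. These values are not steady: r with the adipocyte score was 0.00 over 10 libraries and 0.76 without MMP9 replicate 1 and vehicle replicate 3. With the terminal keratinocyte score it was -0.54 in the 5 vehicle and 0.92 in the 5 MMP9 libraries, and with Lipn -0.67 and 1.00. The differences between these values were not tested.

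**Figure D4:**
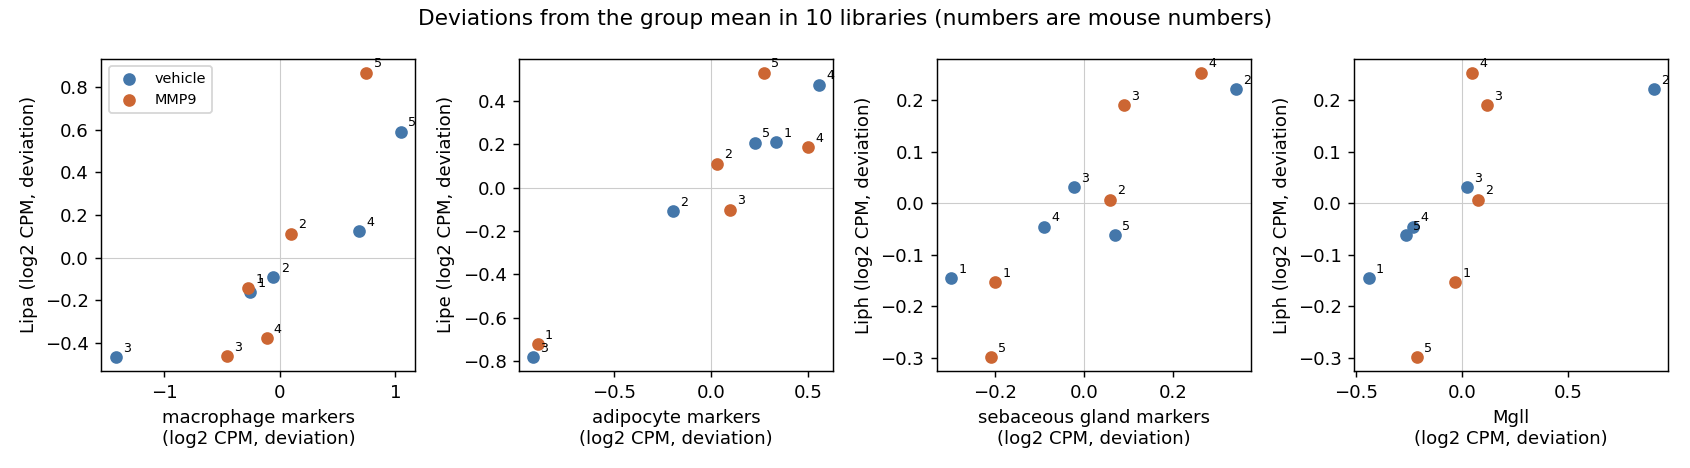
Deviations from the group mean on the log2 CPM scale in the 10 libraries, for the 4 relations that passed (vehicle blue, MMP9 orange, mouse numbers beside the points). Pearson's r is 0.84, 0.95, 0.89 and 0.67 from left to right, and vehicle replicate 2 lies far to the right in the Mgll panel.

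**Figure D5:**
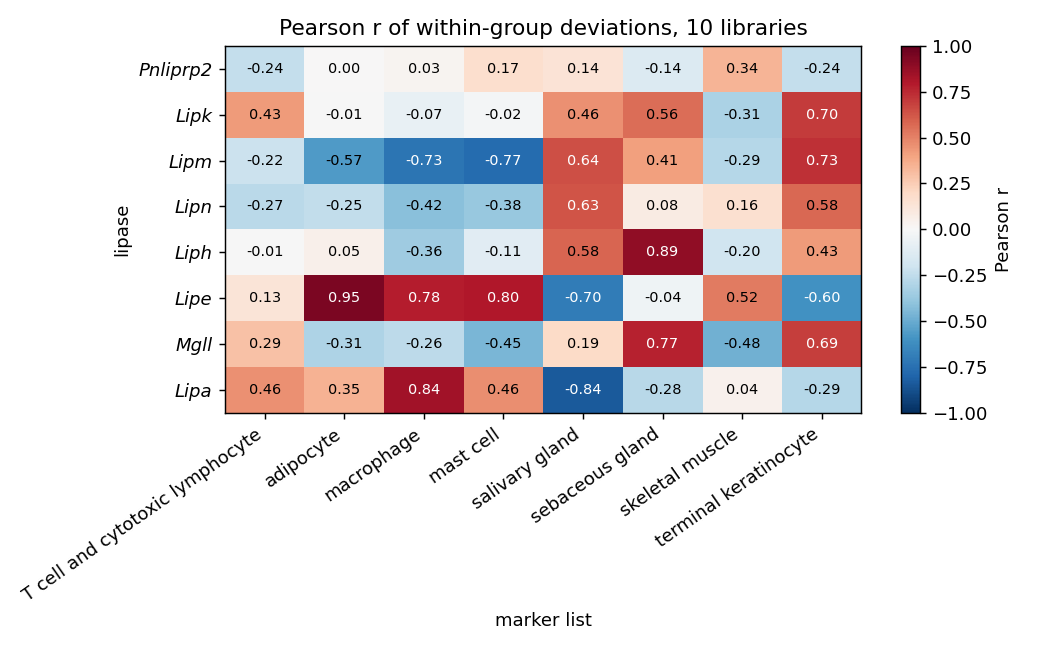
Pearson's r of within-group deviations between each lipase (rows) and each marker list other than hair (columns) over 10 libraries, from -1 in blue to 1 in red. The Pnliprp2 row stays between -0.24 and 0.34, while Lipe reaches 0.95 with adipocyte and Liph 0.89 with sebaceous gland markers.

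By the same within-group deviations, searched over 12518 genes of at least 5 CPM and given with no test, the genes most like each lipase differed from one lipase to the next. For Pnliprp2 they were Gdap2, Hexim2 and Plk2, at r of 0.86, 0.82 and 0.82, the lowest of the 8 sets. Lipk was closest to Abhd5, the gene of an activator of triglyceride lipase, at 0.95. Among the genes most like Lipm were Mboat2 and Papss1, at 0.95 and 0.94. Lipn was closest to the amino acid transporter gene Slc6a14 at 0.98, and Liph to the cytochrome gene Cyp2b10 at 0.96. The genes closest to Lipe were Lgals12, Acss3 and Pde3b at 0.98, 0.98 and 0.97, of which Lgals12 and Pde3b are known in adipocytes. Mgll was closest to Cds1, Pank1 and Rdh1, each at 0.98. Lipa was closest to Dnajc10 and to Mmp12, the macrophage elastase gene, both at 0.97. These genes were selected as the highest of all searched, so such values are high by selection.

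None of the tested genes of the wider lipid pathways passed the test between the groups, as was true of all 15250 genes tested. Of 95 distinct tested genes in 6 lists, 0 passed in edgeR, the genes named here each having an adjusted p of 0.981, and 2 had an unadjusted p under 0.05, Plin5 and Ces1d. In neutral lipolysis and lipid droplets 10 of 25 tested genes were positive, with a median log2 ratio of -0.04. Plin5, a lipid droplet coat gene, averaged 5.97 ± 1.43 CPM in vehicle mice against 4.15 ± 1.07 CPM in MMP9 mice (SD, 5 mice a group). Abhd5, the gene of the triglyceride lipase activator, averaged 96.4 ± 9.27 against 89.4 ± 7.92 CPM. Among other lipases and esterases 8 of 13 were positive with a median of 0.07. The carboxylesterase gene Ces1d averaged 169 ± 12.3 against 206 ± 39.5 CPM, with its highest value, 269 CPM, in MMP9 replicate 4. The related Ces1f averaged 5.70 ± 2.78 against 8.63 ± 2.47 CPM.

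The monoacylglycerol and endocannabinoid list had 8 of 13 tested genes positive and a median log2 ratio of 0.02. The endocannabinoid hydrolase gene Faah averaged 70.9 ± 24.2 CPM in vehicle mice against 59.4 ± 11.3 CPM in MMP9 mice. Lysophosphatidic acid genes were positive in 9 of 15 with a median of 0.01, and the secreted phospholipase gene Pla2g2e averaged 19.4 ± 6.20 against 14.2 ± 3.72 CPM. Lysosomal lipid genes were positive in 9 of 17 with a median of 0.00076, and Npc1, a lysosomal cholesterol transporter gene, averaged 95.7 ± 8.11 against 84.6 ± 16.7 CPM. Stratum corneum lipid genes were positive in 5 of 18 with a median of -0.10.

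Vehicle replicate 2, the library high in Mgll, was also the highest for 12 of 18 tested stratum corneum lipid genes, where it was the highest for 14.2% of all genes tested. In the other lists it was the highest for 5 of 25 neutral lipolysis, 4 of 13 other lipase, 2 of 13 endocannabinoid, 4 of 15 lysophosphatidic acid and 5 of 17 lysosomal genes. This tally was made after the values were seen, and genes of 1 library are not independent. Fa2h, which hydroxylates fatty acids of ceramides, was at 2098 CPM there and at most 1066 CPM in the others, and averaged 1102 ± 579 CPM in vehicle against 741 ± 124 CPM in MMP9. The fatty acid transporter gene Slc27a4 was at 877 CPM there and at most 461 CPM elsewhere. Soat1, a sterol acyltransferase gene, was at 386 CPM there against at most 209 CPM, and Cyp4f39, an enzyme gene of acylceramide synthesis, at 251 against at most 144 CPM. Of the endocannabinoid and lipid droplet lists, Faah was at 113 CPM there against at most 70.9 CPM, and Hilpda, a lipid droplet gene, at 64.5 against at most 41.1 CPM. The part of this library's make-up in the Mgll difference was not tested beyond leaving it out.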

How the data were processed

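The authors deposited 1 table with estimated counts per gene, FPKM and TPM, per the file headers, and 60.8% of the estimated counts are not whole. The deposited FPKM values are scaled by length and library size, and the authors' TPM values are scaled to 1 total in every library. The submitters' processing notes name HISAT and GRCm39. No source used here names the counting program, annotation, strand or filters. The authors' group means in the table were not used. Samples were grouped by their treatment labels.

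Estimated counts were rounded and tested on the whole table with edgeR 4.0.16 in R 4.3.3 (TMM, filterByExpr, quasi-likelihood F test, no covariate, Benjamini-Hochberg, threshold 0.05), which kept 15250 genes and 99.9% of the counts. All 8 lipases passed the filter. The standard error is the log2 fold change over the root of F. Fits were checked on simulated counts. Relations used log2 CPM (prior count 2) less its group mean, with 14400 exact permutations within groups, adjusted over 100. A list score is the mean log2 CPM of its tested members.

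The members, lists, motifs and rules were chosen with earlier results of these data known. The rule for named genes takes the 8 lipases, up to 3 genes of smallest p per pathway list, and the 3 genes most like each lipase, of which 1 is not reported here. Which of these pathway genes are printed was chosen after their values were seen. Of 267 list entries, 244 matched the table by symbol. Promoters are RefSeq's, on GRCm38.p6, and 50-base stretches come from GENCODE transcripts of that build. Alternatives were DESeq2 1.42.0, limma 3.58.1 on log2(TPM + 1) and log2(TPM + 0.1), RLE factors, other filters, a replicate block, FPKM for TPM, and leaving out libraries.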

Additional observations from a re-analysis of the deposited data

Results flagged for a closer look

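One lipase value stood far from the others of its group. Mgll was at 2700.2 CPM in vehicle replicate 2, and the gap to the next vehicle library was 0.753 of the range of the 5, above the critical value of 0.71 for 5 samples. It was the only one among 34 groups of 5 values checked (8 lipases and 9 marker scores in 2 groups each), where chance flags about 1 in 20 groups. The same library was the lowest for hair follicle markers and the highest for Fa2h, Slc27a4 and Soat1. The part of these in the Mgll value was not tested.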

How the results depend on the processing

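Counts of genes past the threshold stayed at 0 under all alternatives except DESeq2, which called 1 gene, Pnliprp2. Between 230 and 676 genes had an unadjusted p under 0.05, and Pnliprp2 had the smallest p under 6 of 18 alternatives. Pnliprp2 was chosen by this contrast, so neither the call nor this rank is separate support for its difference. Over the 18 alternatives Liph changed sign 4 times, and leaving out 1 library took Lipa from 0.30 to 0.01, Lipn from 0.15 to 0.01 and Lipe from -0.16 to -0.02. The count of neighbours that differed in level stayed at 3 in every alternative, while Lipe and Lipm, and Liph and Lipn, changed places in some. The counts of relations changed most. On log2(TPM + 0.1) of all 10 libraries, 2 relations with compartments and 1 among lipases passed. Liph with sebaceous gland markers was then not among them, at an adjusted p of 0.0509 in the exact permutation. With the replicate block, and without vehicle replicate 2 and MMP9 replicate 1 together, 0 relations with compartments and 0 among lipases passed. The joint removal says nothing on stability, since 576 permutations of 8 libraries allow a lone relation an adjusted p of 0.174 at best. Leaving out 1 library at a time gave 0 to 3 and 0 to 1, and only the set without MMP9 replicate 4 gave 3 and 1, where Liph with sebaceous gland markers was not among the 3. These sets have 2880 permutations. Over these 10 sets r ran from 0.78 to 0.89 for Lipa with macrophage markers, 0.90 to 0.98 for Lipe with adipocyte, 0.85 to 0.92 for Liph with sebaceous gland and 0.63 to 0.76 for Liph with Mgll, with adjusted p values from 0.0174 to 0.174. Under the block, r was 0.45, 0.95, 0.97 and 0.58. Whether mouse numbers pair the mice was not tested: correlations of same-numbered mice ran from -0.24 to 0.46, and 2 of 5 matched their own number best. Depth limits Pnliprp1 and Pnlip, at 83 and 1 counts over the 10 libraries, which were under the filter. The joint removal of vehicle replicate 2 and MMP9 replicate 1 was added for the fold changes after seeing the data.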

Other observations

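Several lipases outside the 8 were abundant in this tissue by TPM over the 10 libraries. Pnpla2, which encodes the adipose triglyceride lipase, averaged 240 TPM, the carboxylesterase gene Ces1d 156 TPM, the lipoprotein lipase gene Lpl 147 TPM and Pnpla5 114 TPM. Lipo3, a relative of the epidermal acid lipases on the same chromosome, averaged 17.8 TPM, between 14.0 and 21.1, which is in the range of Lipn and Lipk. Its relatives Lipo2 and Lipo4 had 39.9 and 0.51 estimated counts in all 10 libraries together. Between near-identical copies of this family the counts are uncertain, since the authors' handling of shared reads is not stated. These levels were chosen after their values were seen.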
